A study of Neurospora crassa with 86 samples.

Results

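The nitrate assimilation pathway of the filamentous fungus Neurospora crassa was followed through 3 genes. They are nit-10 (NCU07205), the nitrate transporter, nit-3 (NCU05298), nitrate reductase, and nit-6 (NCU04720), nitrite reductase. They were chosen by their identifiers as the uptake step and the reduction steps of the pathway, and they are 3 of the 9758 genes with a value in the deposited files. All 3 passed the filter on low values. RNA of mycelium was sequenced in 86 libraries that form 27 groups of strain and medium. The labels call the libraries of a group biological replicates, and most groups have 3.

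Every strain was grown as mycelium in the same way: 24 h in Vogel's minimal medium with 2% sucrose, then a wash, then 4 h in the test medium. The strain called wild type here is FGSC 2489. It was tested on 14 media in 47 libraries. Full medium held 2% sucrose and 25 mM NH4NO3, so its nitrogen came as ammonium and nitrate together (5 libraries). Single nitrogen sources, with 2% sucrose, were NaNO3, NH4Cl, glutamate, glutamine, isoleucine, proline or tryptophan at 50 mM, alanine at 112 mM, glycine at 200 mM and arginine at 344 mM. Nitrogen starvation kept the sucrose and left the nitrogen source out (6 libraries). Carbon starvation kept 25 mM NH4NO3 and left the sugar out, and the mannose medium held 2 mM mannose with 25 mM NH4NO3.

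The Δnit-2 strain lacks the activator of nitrogen catabolic genes and was grown in full medium, nitrate, isoleucine, proline and tryptophan (15 libraries). The strain labelled Δnit-4, for the gene of the pathway-specific activator, was grown in nitrate and without nitrogen (6 libraries). The Δnmr strain lacks the negative regulator of nit-2 and was grown in full medium and without nitrogen (6 libraries). Δamn-1 was grown on mannose, isoleucine, proline and tryptophan (12 libraries). The labels do not say how many isolates of a deletion strain were used, nor name a parent strain for the deletions.

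Nitrate enters the cell through a membrane transporter, is reduced to nitrite by nitrate reductase and is then reduced to ammonium by nitrite reductase. In N. crassa the structural genes are known to need both the GATA factor NIT2, which acts when preferred nitrogen sources are scarce, and the zinc cluster factor NIT4, which acts when nitrate is present. NMR binds NIT2 and holds it back when glutamine or ammonium is plentiful.

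The genes lie apart, on different chromosomes. In the files' coordinates, which equal those of RefSeq assembly NC12, nit-3 is at bases 5420216 to 5423422 of supercontig 12.4 (chromosome IV). nit-6 is at bases 534862 to 539145 of supercontig 12.6 (chromosome VI). nit-10 is at bases 6247448 to 6250397 of supercontig 12.5 (chromosome V). Its neighbour NCU11348 ends at base 6247443, with 4 bases between the gene models. The authors' joint table of all samples merges nit-10 with NCU11348, so the per-sample values were used. Strand is not given in the files, so fragments near that boundary could be assigned to either gene.

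Values are FPKM, fragments normalized to transcript length and to the mapped fragments of the library, each library divided by 1 median-ratio factor. Levels can be compared between genes because the values are per length. Differences are on the log2(FPKM + 1) scale, which understates the change of low genes, and are given with the standard error (SE) of the fit. limma was used with Benjamini-Hochberg adjustment over all genes tested. A gene passed the test at an adjusted p under 0.05 with a difference of at least 1 log2. Libraries held 6890000 to 19110000 estimated fragments. The libraries with fewest fragments behind a value held 30.0 estimated fragments for nit-3, 60.2 for nit-6 and 126 for nit-10. Deeper libraries have less counting error. Nothing but the labels says that replicates were separate cultures, so p-values measure the spread between these libraries.

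The deleted genes were checked first. The nit-2 transcript measured 3.28 to 6.46 FPKM across the Δnit-2 groups, against 35.3 to 74.7 in wild type on the same media. The nmr transcript measured 1.27 to 2.85 FPKM in Δnmr, against 8.51 to 28.1 in wild type of both media. NCU00445, known as amn-1, measured 0.269 to 0.381 FPKM in Δamn-1 on mannose, against 22.3 to 36.8 in wild type. It was less depleted in Δamn-1 on the other media, at 1.97 ± 0.321 against 12.6 ± 1.16 FPKM on isoleucine, 4.67 ± 0.397 against 9.67 ± 0.585 on proline and 5.12 ± 0.413 against 9.34 ± 0.938 on tryptophan (SD, n = 3). In the libraries labelled Δnit-4 the nit-4 transcript was no lower. It measured 6.48 ± 2.15 FPKM there in nitrate, against 5.38 ± 0.658 in wild type (SD, n = 3). A whole-gene FPKM does not check a deletion that leaves part of the transcript, so these libraries are called by their label throughout. A further difference between libraries follows the media. Mitochondrial genes took 0.0464% to 0.174% of the summed FPKM in 39 libraries, those of the media with nitrate, ammonium, tryptophan, proline or isoleucine as sole nitrogen source. They took 0.00297% to 0.0284% in the other 47 libraries, full medium included. The part of this in the differences between these sets of media was not tested.

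**Figure D1:**
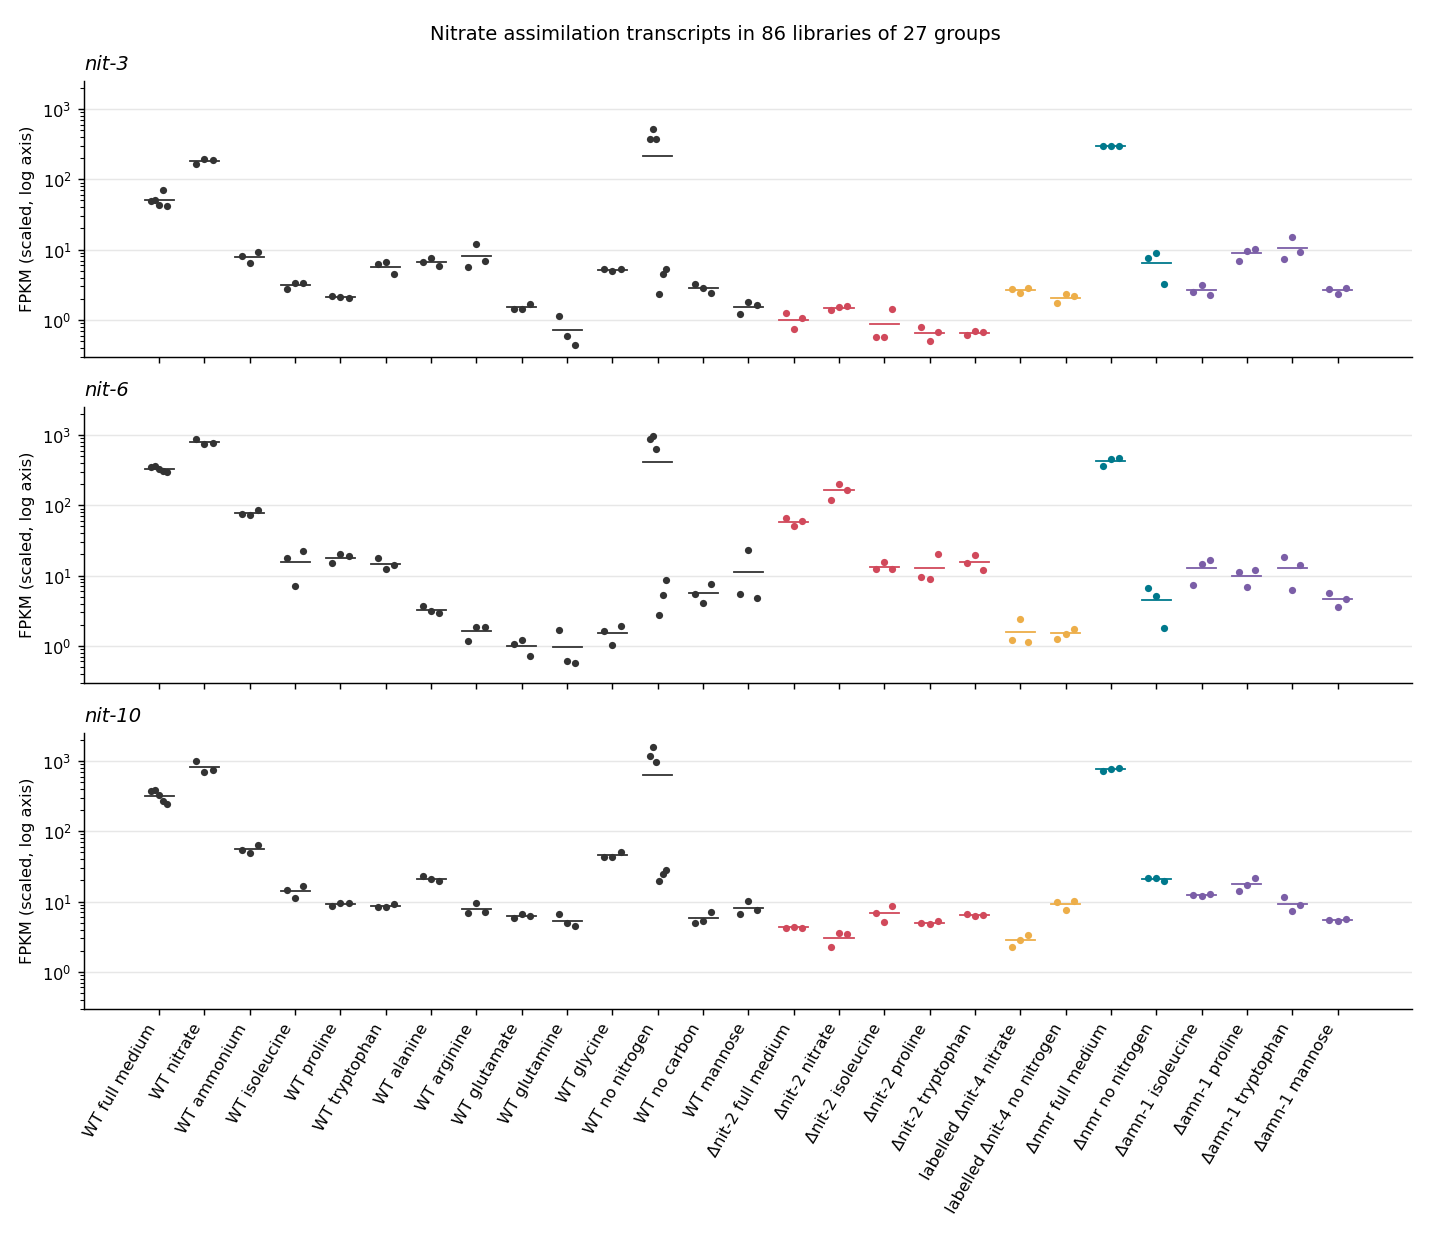
Scaled FPKM of nit-3, nit-6 and nit-10 on a log axis in each of 86 libraries, grouped by strain and medium; points are libraries and horizontal bars are group means. Wild type on nitrate and in full medium and Δnmr in full medium are high for all 3 genes, and the 6 starved wild type libraries split into 3 high and 3 low.

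All 3 genes spanned a wide range. nit-3 ran from 0.444 FPKM in a wild type glutamine library to 520 in a starved wild type library. nit-6 ran from 0.576 to 980 FPKM and nit-10 from 2.26 to 1591 FPKM. The same starved library held all 3 highest values. By group mean of log2(FPKM + 1), the highest groups for nit-3 were Δnmr in full medium, wild type on nitrate and wild type in full medium, and these did not overlap each other. For nit-6 the order was wild type on nitrate, Δnmr in full medium and wild type in full medium, of which the last pair overlapped. For nit-10 wild type on nitrate and Δnmr in full medium overlapped, and both lay above wild type in full medium. Of the 26 neighbouring pairs in each order, the libraries did not overlap in 5 for nit-3, 6 for nit-6 and 5 for nit-10. Neighbours in an order sorted by these same means are close by construction, and the same count over all genes was not made. Where neighbours overlapped, their order is not settled by these libraries.

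The first question is how the wild type set the 3 transcripts on nitrate compared with ammonium, the sole nitrogen source in either medium. All 3 rose on nitrate: the transporter, the nitrate reductase and the nitrite reductase were each more than 10-fold higher. For nit-10 the nitrate libraries read 988, 707 and 733 FPKM and the ammonium libraries 54.0, 49.3 and 63.4. For nit-3 they read 164, 197 and 189 FPKM on nitrate and 8.10, 6.41 and 9.23 on ammonium. For nit-6 they read 878, 745 and 766 FPKM on nitrate and 75.1, 72.3 and 85.1 on ammonium. Every nitrate library lay above every ammonium library for each gene. The ratio of means was 14.6 for nit-10, with a log2 difference of 3.83 (SE 0.16, adjusted p = 1.4e-27). It was 23.2 for nit-3, with a log2 difference of 4.38 (SE 0.21, adjusted p = 1.8e-25). It was 10.3 for nit-6, with a log2 difference of 3.34 (SE 0.35, adjusted p = 7.4e-11). Across all 8705 genes tested, 1.08% rose in this comparison, and 3 of 3 pathway genes were among them. In bulk samples, fewer cells of a type and less RNA per cell cannot be told apart.

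The other genes of nitrogen metabolism moved less between these media. Of 3 regulators (nit-2, nit-4, nmr) none passed the test, and their transcripts differed by 0.11, 0.22 and 0.04 log2. Of 5 genes of ammonium assimilation (am, gdh-1, gln-1, gln-2, en(am)-2) none passed. The nearest was gln-2, a glutamine synthetase subunit gene, at 1089 ± 97.7 against 597 ± 77.1 FPKM (SD, n = 3) and a log2 difference of 0.87 (adjusted p = 0.0039). Of 6 genes for secondary nitrogen sources (pmg, mtr, lao, aln-1, alc-1, xdh-1) 2 rose, where 1.08% of all genes rose. The risers were pmg, a general amino acid permease gene, by 1.59 log2 and lao, the L-amino acid oxidase gene, by 1.28. The median log2 difference was 0.76 over the 6 secondary source genes, 0.11 over the regulators and 0.20 over ammonium assimilation, against 0.00074 over all genes tested. A list of 6 molybdenum cofactor genes, needed by nitrate reductase, could not be matched by symbol and is not analysed here.

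Full medium, which holds ammonium and nitrate together, gave levels between those of the single sources. nit-10 read 370, 383, 332, 273 and 244 FPKM in its 5 libraries. nit-3 read 48.7, 50.2, 43.3, 70.9 and 42.2 FPKM. nit-6 read 352, 366, 333, 303 and 298 FPKM. For each gene all 5 libraries lay below the nitrate libraries and above the ammonium libraries. On nitrate alone the genes were higher than in full medium by 1.34 log2 for nit-10 (SE 0.14, adjusted p = 6.1e-12), 1.85 for nit-3 (SE 0.18, adjusted p = 4.7e-13) and 1.27 for nit-6 (SE 0.31, adjusted p = 0.00036). Of all genes, 7.48% rose in that comparison, and 67.4% of the genes called were higher, against 42.1% with FPKM as deposited. With the starved wild type libraries also in the fit, nit-10 and nit-6 did not pass here (adjusted p = 0.075 and 0.21). On ammonium alone they fell by 2.49 log2 for nit-10, 2.53 for nit-3 and 2.08 for nit-6 (SE 0.14, 0.18 and 0.31, adjusted p at most 7.0e-08), where 2.79% of all genes fell. On ammonium 63.8% of the genes called were higher, against 40.0% as deposited. The nitrate and ammonium libraries belong to the set with the higher mitochondrial share and full medium does not.

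With an amino acid as the sole nitrogen source, all 3 genes were lower than in full medium in each of the 8 amino acids tested. The depth of the fall differed by gene. nit-6 was below nit-3 and nit-10 in every library on glycine, arginine, alanine and glutamate, while nit-10 was the highest on glycine, alanine, glutamate and glutamine. On glutamine nit-10 read 6.69, 4.88 and 4.49 FPKM, nit-3 read 1.13, 0.587 and 0.444, and nit-6 read 1.66, 0.611 and 0.576. On glutamate nit-10 read 5.92, 6.69 and 6.30 FPKM, nit-3 read 1.41, 1.42 and 1.69, and nit-6 read 1.05, 1.20 and 0.726. Both media lay far below full medium for every gene, and glutamine and glutamate overlapped each other for nit-6 and nit-10. In glutamine the log2 differences from full medium were -5.65 for nit-10, -4.91 for nit-3 and -7.45 for nit-6, where 0.747% of all genes fell. In glutamate they were -5.44, -4.35 and -7.38 in the same order, where 1.40% of all genes fell. The adjusted p was at most 5.0e-28 for each of these.

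On glycine, alanine and arginine the transporter lay above the nitrite reductase, as it did on glutamine and glutamate. On glycine nit-10 read 42.7, 43.3 and 50.1 FPKM while nit-6 read 1.64, 1.03 and 1.91. The nit-6 to nit-10 ratio was 0.0335 ± 0.0084 there, against 1.05 ± 0.116 in full medium (SD, n = 3 and 5), and the ranges did not overlap. nit-3 read 5.26, 4.89 and 5.34 FPKM on glycine. On alanine nit-10 read 22.8, 21.2 and 19.4 FPKM, nit-3 read 6.73, 7.57 and 5.88, and nit-6 read 3.66, 3.10 and 2.96. On arginine nit-10 read 6.95, 9.44 and 7.05 FPKM, nit-3 read 5.68, 12.1 and 6.95, and nit-6 read 1.19, 1.89 and 1.87. On arginine nit-10 and nit-3 overlapped and nit-6 was below both. The log2 differences from full medium on glycine were -2.77 for nit-10, -3.05 for nit-3 and -7.05 for nit-6, where 15.2% of all genes fell. On alanine they were -3.84, -2.73 and -6.29, where 0.873% of all genes fell. On arginine they were -5.18, -2.53 and -6.97, where 15.1% of all genes fell. All 3 genes fell in each of these media, with adjusted p at most 7.4e-19. The concentrations of these 3 amino acids differ from the 50 mM of the others.

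Isoleucine, proline and tryptophan gave low levels of all 3 genes, also against ammonium. On proline nit-10 read 8.64, 9.43 and 9.53 FPKM, nit-3 read 2.16, 2.13 and 2.05, and nit-6 read 15.1, 20.1 and 18.9. On isoleucine nit-10 read 14.5, 11.3 and 16.5 FPKM, nit-3 read 2.78, 3.30 and 3.33, and nit-6 read 18.1, 7.08 and 22.4. On tryptophan nit-10 read 8.26, 8.45 and 9.13 FPKM, nit-3 read 6.15, 6.64 and 4.45, and nit-6 read 17.5, 12.5 and 14.2. Here nit-6 was above nit-3 in every library, which is the reverse of glycine, alanine, arginine and glutamate. Against ammonium at the same 50 mM, nit-10 fell by 1.91 log2 on isoleucine, 2.46 on proline and 2.55 on tryptophan. nit-6 fell by 2.35, 2.05 and 2.33 in the same order. nit-3 fell by 1.10 on isoleucine and 1.50 on proline. On tryptophan nit-3 differed by -0.40 log2 (SE 0.21, adjusted p = 0.077), and its libraries overlapped those of ammonium. The nit-3 fall on isoleucine did not pass the fold threshold when 1 ammonium library (replicate 3) was left out, at -0.99 log2. With the starved libraries in the fit, nit-3 on isoleucine and nit-3 and nit-6 on proline did not pass (adjusted p = 0.28, 0.12 and 0.058). The adjusted p of the falls was at most 9.9e-06. Of all genes 5.12% fell on isoleucine, 8.54% on proline and 9.75% on tryptophan. Against full medium all 3 genes fell by 2.94 to 5.04 log2 in these media, where 10.6%, 13.6% and 14.0% of all genes fell. The summed FPKM of 5 conidiation genes (eas, con-6, con-10, con-8, con-13), which mark spore formation, was 412 to 829.5 on isoleucine, 143 to 263 on proline and 155 to 364 on tryptophan, against 73.1 to 81.7 on ammonium. Its part in the result was not tested.

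Media without sucrose also had low levels, although both held 25 mM NH4NO3 as full medium did. Under carbon starvation nit-10 read 4.91, 5.22 and 7.20 FPKM, nit-3 read 3.25, 2.85 and 2.39, and nit-6 read 5.50, 4.07 and 7.52. On 2 mM mannose nit-10 read 6.75, 10.1 and 7.58 FPKM, nit-3 read 1.22, 1.77 and 1.63, and nit-6 read 5.55, 22.9 and 4.81. For nit-6 the second mannose library was far above the other pair. All libraries of both media lay below full medium for every gene. The log2 differences from full medium were -5.56 for nit-10, -3.75 for nit-3 and -5.66 for nit-6 under carbon starvation, where 17.4% of all genes fell. On mannose they were -5.13, -4.34 and -5.09, where 19.1% of all genes fell. The adjusted p was at most 1.6e-22. The conidiation sum was 25595 to 34937 under carbon starvation and 6995 to 14177 on mannose, against 35.8 to 119 in full medium. Its part in the result was not tested.

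**Figure D2:**
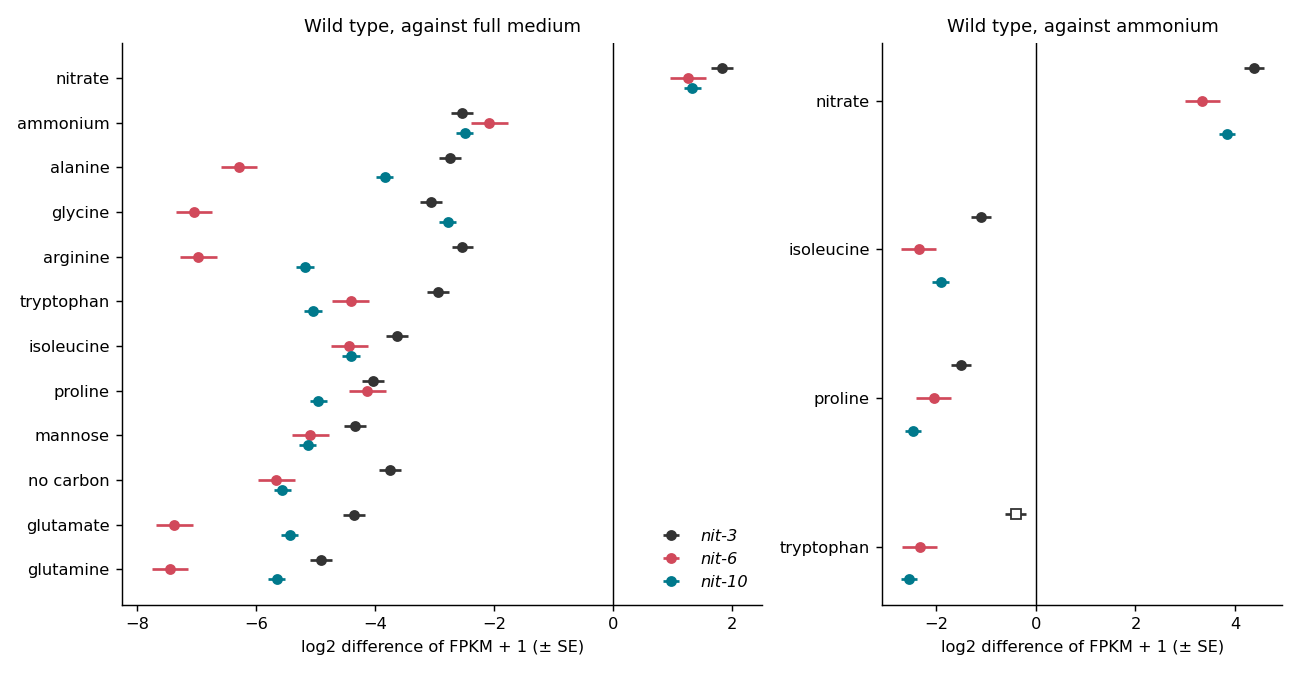
Log2 difference of FPKM + 1 with its SE for nit-3, nit-6 and nit-10 in wild type media, against full medium (left) and against ammonium (right); filled circles passed the test and the open square did not. Nitrate alone lies to the right of zero, nit-6 has its lowest values on glutamine, glutamate, glycine and arginine, and nit-3 on tryptophan against ammonium (-0.40) is the open square.

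Under nitrogen starvation the 6 wild type libraries did not form 1 group for these genes. Libraries labelled 1 to 3 read 1189, 1591 and 970 FPKM for nit-10, and libraries 4 to 6 read 19.7, 24.5 and 27.7. For nit-3 the first set read 378, 520 and 374 FPKM and the second 2.36, 4.44 and 5.22. For nit-6 the first set read 874, 980 and 630 FPKM and the second 2.76, 5.28 and 8.56. The first set lay above full medium and the second below it for every gene. The labels describe all 6 libraries alike, and no label names a batch. Over all 6 against the 5 of full medium, the log2 differences were -0.86 for nit-10 (SE 1.25, adjusted p = 0.59), -0.18 for nit-3 (SE 1.42, adjusted p = 0.93) and -2.23 for nit-6 (SE 1.56, adjusted p = 0.25). None of the 3 genes passed the test, where 16.3% of all genes passed in either direction. Exact two-sided permutation tests gave p = 0.57 for nit-10, 0.83 for nit-3 and 0.24 for nit-6 (n = 6 and 5). Adjusted over the 3, these were 0.83, 0.83 and 0.73.

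Split by label number, the sets gave opposite directions. Against full medium, libraries 1 to 3 were higher by 1.95 log2 for nit-10, 3.04 for nit-3 and 1.30 for nit-6. Libraries 4 to 6 were lower, with log2 differences of -3.68, -3.40 and -5.76 in the same order. The sets were separated after their values were known, so these values describe the libraries, with no test, and no direction is given for starvation. Full medium libraries carry the same numbers. Their sets did not overlap for nit-10, at 332 to 383 FPKM in 1 to 3 and 244 to 273 in 4 and 5. They did not overlap for nit-6, at 333 to 366 and 298 to 303 FPKM, and overlapped for nit-3. The share of all genes without overlap between these full medium sets was not counted, so the ranges only describe the libraries. The spore gene con-6 read 19.7 to 24.8 FPKM in full medium libraries 1 to 3 and 1.19 to 1.79 in 4 and 5. The other conidiation genes did not share this difference. In full medium con-8 was higher in 4 and 5, while eas, con-10, con-13 and the conidiation sum overlapped between the sets. In the starved libraries con-6 ran the other way, lower in 1 to 3 than in 4 to 6. The mitochondrial shares of the full medium sets were 0.00858% to 0.00952% and 0.0174% to 0.0210%. NCU11348, the neighbour of nit-10, measured 306 ± 14.2 FPKM in starved libraries 1 to 3 and 77.3 ± 4.36 in 4 to 6 (SD, n = 3). In full medium it read 181 to 190 FPKM in 1 to 3 and 141 to 143 in 4 and 5. eas, the hydrophobin gene of the spore coat, read 27.6 to 103 FPKM in the first set and 6662 to 7586 in the second. The summed level of the 5 conidiation genes was 49.5 to 130 FPKM and 6836 to 7724, and con-13 was at or under 1.19 FPKM in both sets. The mitochondrial share was 0.0120% to 0.0148% in the first set and 0.0245% to 0.0249% in the second. The part of these in the split was not tested.

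**Figure D3:**
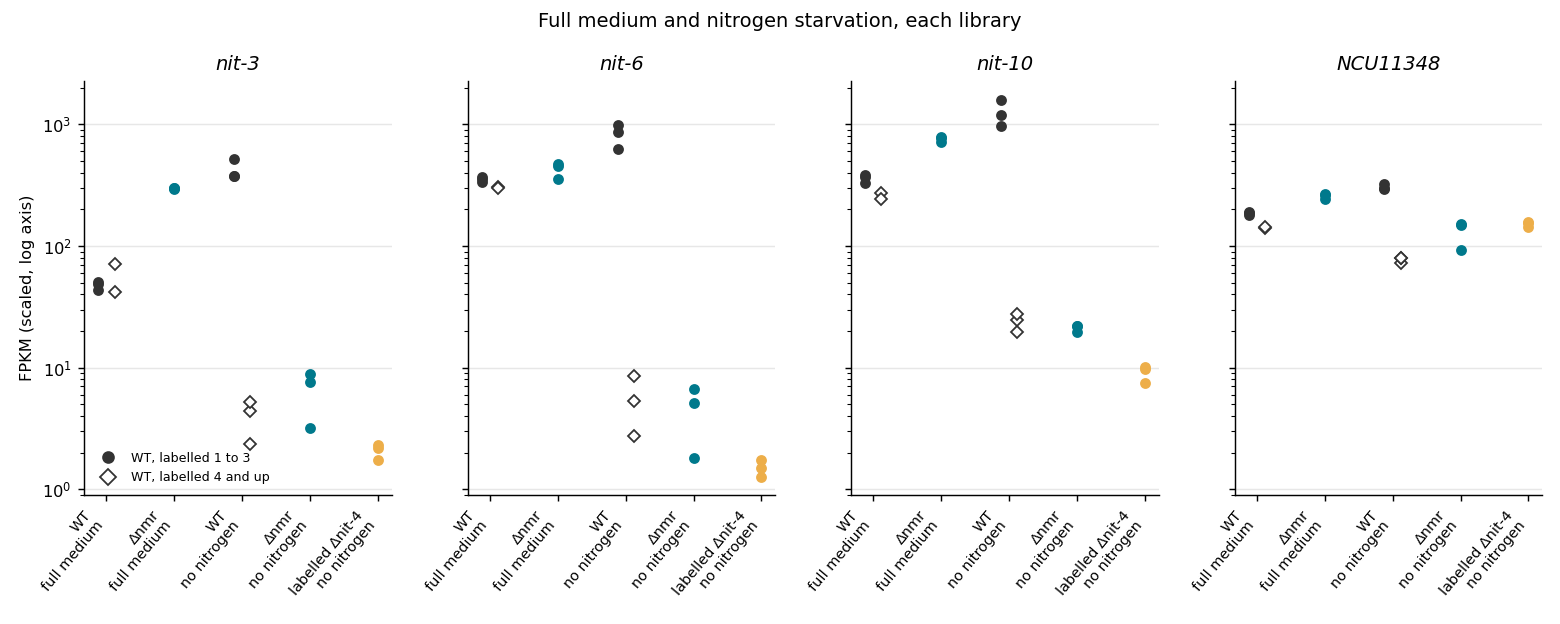
Scaled FPKM on a log axis of nit-3, nit-6, nit-10 and NCU11348 in each library of full medium and nitrogen starvation, by strain; filled black circles are wild type libraries labelled 1 to 3 and open diamonds those labelled 4 and up. Starved wild type libraries 1 to 3 lie above full medium and 4 to 6 lie near starved Δnmr for the 3 pathway genes.

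The deletion of nit-2 addresses how far each gene needs the activator. In full medium and on nitrate all 3 genes fell in Δnit-2. On nitrate nit-6 still exceeded 94.3% of all genes in Δnit-2, while nit-3 exceeded 23.0% and nit-10 29.7%. In wild type these were 98.4%, 94.6% and 98.4%. On nitrate Δnit-2 read 2.26, 3.54 and 3.43 FPKM for nit-10 and 1.37, 1.52 and 1.56 for nit-3. It read 121, 203 and 166 FPKM for nit-6. In full medium it read 4.26, 4.40 and 4.21 FPKM for nit-10, 1.25, 0.732 and 1.06 for nit-3, and 66.1, 50.0 and 59.3 for nit-6. No Δnit-2 library reached the lowest wild type library of its medium. On nitrate the ratio of wild type to Δnit-2 means was 263 for nit-10, 124 for nit-3 and 4.89 for nit-6. The log2 differences were -7.63 for nit-10 (SE 0.16, adjusted p = 4.7e-44), -6.21 for nit-3 (SE 0.21, adjusted p = 6.2e-34) and -2.31 for nit-6 (SE 0.35, adjusted p = 2.0e-07). Of all genes 5.70% fell, and 37.6% of the genes called were higher, against 60.8% with FPKM as deposited. In full medium the ratios were 74.6, 50.4 and 5.65, and the log2 differences were -5.90, -4.68 and -2.48 (adjusted p at most 4.6e-09). Of all genes 1.55% fell there. The conidiation sum was 374 to 550 FPKM in Δnit-2 on nitrate against 143 to 270 in wild type, and 19.9 to 23.4 against 35.8 to 119 in full medium. Its part in the result was not tested.

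The fall was larger on nitrate than in full medium for nit-3 and nit-10. Wild type nit-3 in full medium had a mean log2(FPKM + 1) of 5.68, so no fall there could reach the 6.21 on nitrate. Wild type nit-10 was itself higher on nitrate by 1.34 log2, and Δnit-2 was low for it in both media. The part of the wild type levels in these differences was not tested. The test of the difference between the effects gave -1.54 log2 for nit-3 (SE 0.28, adjusted p = 2.5e-05) and -1.73 for nit-10 (SE 0.22, adjusted p = 2.1e-08), where 3.68% of all genes were lower by this test. For nit-6 it gave 0.17 (SE 0.47, adjusted p = 0.81), which does not show that the effects were equal. With the starved libraries in the fit, the differences of nit-3 and nit-10 did not pass (adjusted p = 0.34 and 0.20). nit-10 in Δnit-2 was no higher on nitrate than in full medium, and its libraries there lay below those in full medium.

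On isoleucine, proline and tryptophan, where the wild type levels were low, Δnit-2 differed less. On isoleucine it read 6.83, 5.13 and 8.75 FPKM for nit-10, 0.581, 0.573 and 1.44 for nit-3, and 12.2, 15.5 and 12.2 for nit-6. On proline it read 4.91, 4.85 and 5.24 FPKM for nit-10, 0.805, 0.507 and 0.674 for nit-3, and 9.40, 8.90 and 20.6 for nit-6. On tryptophan it read 6.76, 6.19 and 6.40 FPKM for nit-10, 0.601, 0.700 and 0.665 for nit-3, and 15.0, 19.4 and 12.2 for nit-6. nit-6 overlapped wild type in all of these media, and nit-3 and nit-10 were below every wild type library. The share of all genes without overlap in these comparisons was not counted. nit-3 fell by 1.18 log2 on isoleucine (SE 0.21, adjusted p = 6.0e-06), where 2.42% of all genes fell, and by 2.01 on tryptophan (SE 0.21, adjusted p = 4.0e-12), where 2.98% fell. Neither passed with the starved libraries in the fit (adjusted p = 0.29 and 0.053). On proline nit-3 differed by -0.91 log2 (adjusted p = 0.00019) and missed the fold threshold, and none of the 3 genes passed there, where 9.21% of all genes passed in either direction. nit-10 missed it on isoleucine at -0.94, on proline at -0.76 and on tryptophan at -0.37 (adjusted p = 4.1e-06, 7.6e-05 and 0.061). With a pseudocount of 0.1 nit-3 on proline passed at -1.56 and nit-10 on isoleucine at -1.04. nit-6 differed by -0.11, -0.53 and 0.06 log2 on isoleucine, proline and tryptophan, with adjusted p of 0.84, 0.20 and 0.91.

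The fall on nitrate was larger than on each of these amino acids for all 3 genes. The tests of the difference gave -6.69 to -7.27 log2 for nit-10, -4.20 to -5.30 for nit-3 and -1.78 to -2.37 for nit-6, with adjusted p at most 0.0028. Wild type mean log2(FPKM + 1) on these amino acids was only 1.64 to 2.74 for nit-3 and 3.26 to 3.90 for nit-10. No fall there could reach the 6.21 and 7.63 seen on nitrate. For nit-3 and nit-10 the tests therefore cannot tell whether the need for nit-2 differs between these media. For nit-6 none of them passed with the starved libraries in the fit (adjusted p from 0.20 to 0.32). Of all genes 1.93%, 7.60% and 4.65% were lower by these tests for isoleucine, proline and tryptophan.

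nit-6 therefore still differed between media in the absence of nit-2. Within Δnit-2 it was higher on nitrate than on isoleucine by 3.49 log2, than on proline by 3.62 and than on tryptophan by 3.30 (SE 0.35 each, adjusted p at most 2.3e-11), with ratios of means of 12.2, 12.6 and 10.5. These comparisons were added after the values were seen. Of all genes 0.793%, 0.735% and 4.12% rose in them. nit-3 and nit-10 did not pass in any of them. nit-3 on nitrate differed by 0.44 to 0.58 log2. nit-10 on nitrate differed by -0.57 to -0.95. With a pseudocount of 0.1 nit-3 passed against proline and tryptophan (1.07 each) and nit-10 against isoleucine (-1.14) and tryptophan (-1.07).

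The ratio of nit-6 to nit-3 within each library was compared between the strains. It was 109 ± 22.8 in Δnit-2 on nitrate and 4.39 ± 0.833 in wild type (SD, n = 3). In full medium it was 59.1 ± 8.21 in Δnit-2 and 6.71 ± 1.38 in wild type (SD, n = 3 and 5). Against nit-10, the ratio of nit-6 was 53.0 ± 4.54 in Δnit-2 on nitrate and 0.996 ± 0.0932 in wild type (SD, n = 3). The ranges did not overlap in any of these pairs. Exact two-sided permutation tests of the log2 ratios of FPKM + 1 gave p = 0.036 in full medium and 0.10 on nitrate, for both ratios, which are the smallest values possible with 3 against 5 and 3 against 3. Adjusted over the 10 ratio tests made, both were 0.17. On isoleucine, proline and tryptophan the differences of the log2 ratio were 1.07, 0.38 and 2.07 to nit-3 (p = 0.20, 0.50 and 0.10, exact permutation tests). To nit-10 they were 0.84, 0.23 and 0.43 (p = 0.10, 0.80 and 0.20, exact permutation tests). None passed.

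**Figure D4:**
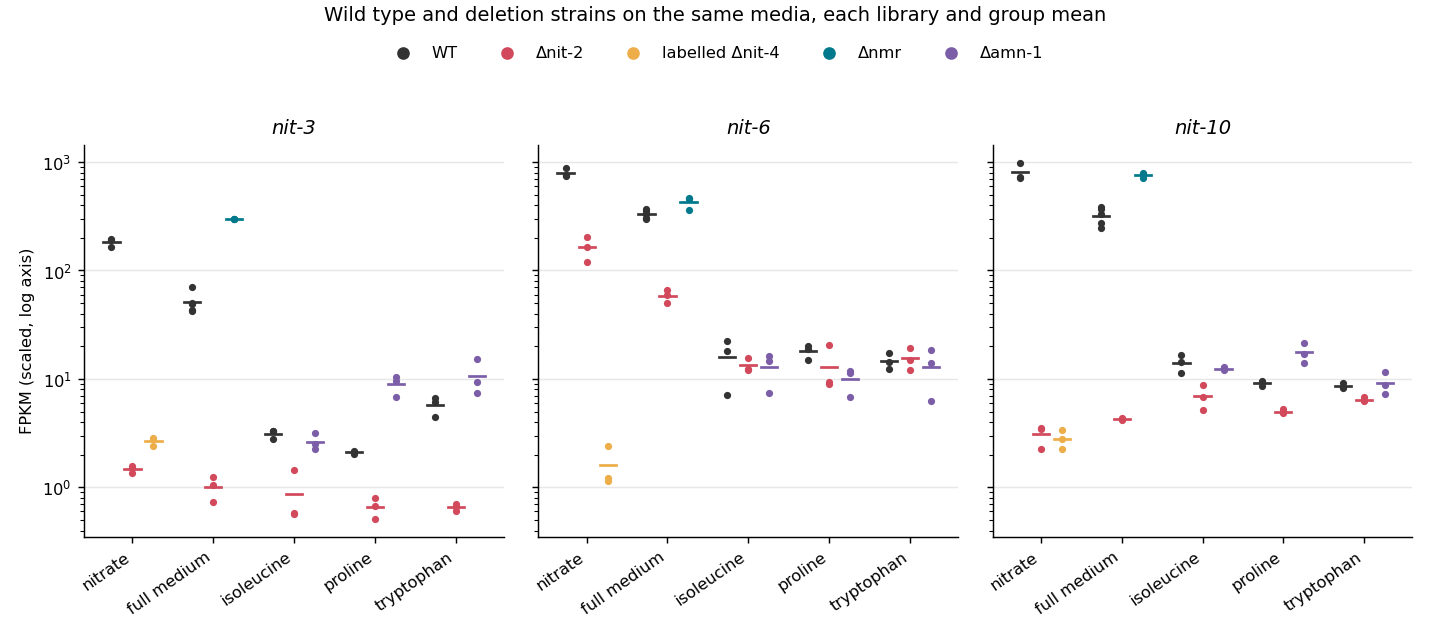
Scaled FPKM on a log axis of nit-3, nit-6 and nit-10 in wild type and deletion strains on 5 media; points are libraries and bars are group means. In Δnit-2 on nitrate nit-6 lies at 121 to 203 FPKM while nit-3 and nit-10 lie under 4, and the libraries labelled Δnit-4 are low for all 3 genes.

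**Figure D5:**
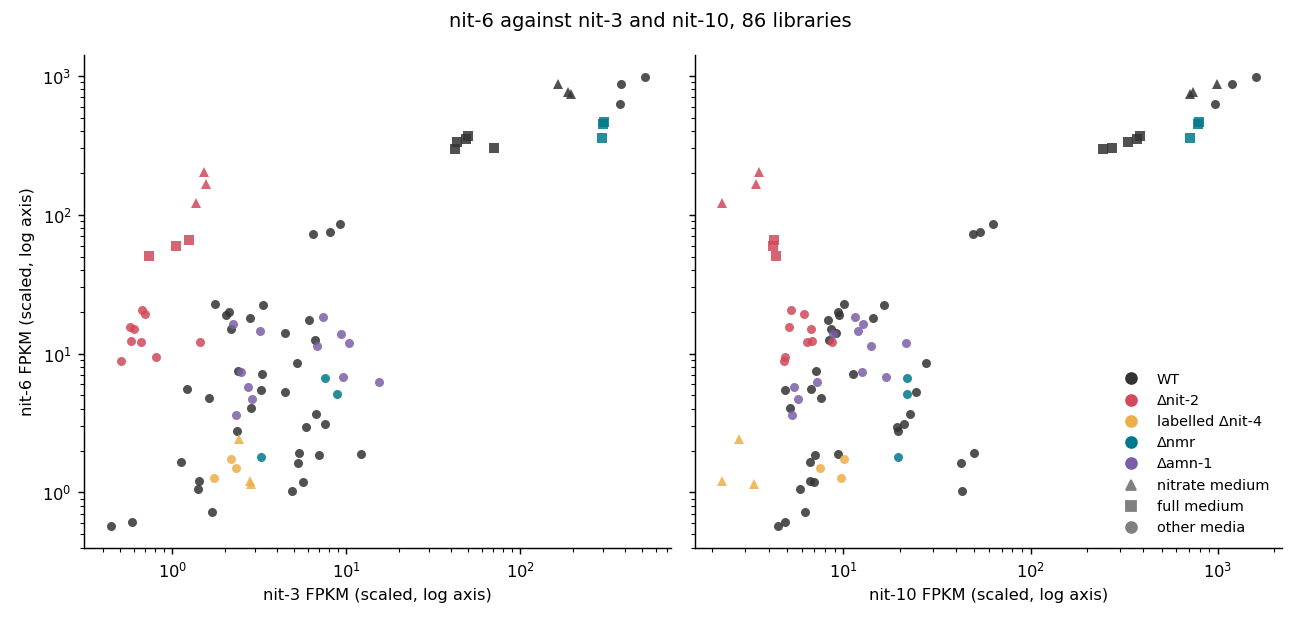
nit-6 FPKM against nit-3 FPKM (left) and nit-10 FPKM (right) in each of 86 libraries, both axes log; colour is strain and shape is medium. Δnit-2 libraries on nitrate and in full medium (red triangles and squares) lie to the upper left, at nit-6 to nit-3 ratios of 109 and 59.1 on average.

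The libraries labelled Δnit-4 were low for all 3 genes on nitrate, nit-6 included. They read 2.26, 2.80 and 3.36 FPKM for nit-10, 2.78, 2.42 and 2.83 for nit-3, and 1.21, 2.42 and 1.15 for nit-6. Each lay below every wild type nitrate library. The ratio of wild type to these means was 288 for nit-10, 68.5 for nit-3 and 500 for nit-6. The log2 differences were -7.73 for nit-10 (SE 0.16, adjusted p = 2.4e-44), -5.65 for nit-3 (SE 0.21, adjusted p = 1.8e-31) and -8.30 for nit-6 (SE 0.35, adjusted p = 2.3e-28). Of all genes 4.06% fell, and 45.1% of the genes called were higher, against 79.8% with FPKM as deposited. The conidiation sum was 1774 to 3141 FPKM in these libraries, against 143 to 270 in wild type on nitrate, and its part in the result was not tested.

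Set side by side on nitrate, the strains differed in the nitrite reductase. nit-6 was lower in the libraries labelled Δnit-4 than in Δnit-2 (a log2 difference of -5.99, SE 0.35, adjusted p = 6.1e-22), a ratio of means of 102, and 3.66% of all genes fell in that comparison. nit-10 overlapped between them, at -0.09 log2 (SE 0.16, adjusted p = 0.70). nit-3 was at 2.68 ± 0.228 FPKM in the libraries labelled Δnit-4 and 1.48 ± 0.0996 in Δnit-2 (SD, n = 3), a log2 difference of 0.57 that missed the fold threshold (SE 0.21, adjusted p = 0.025).

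In the libraries labelled Δnit-4 on nitrate, 4 of 6 genes of secondary nitrogen sources rose and 1 fell, where 3.33% of all genes rose and 4.06% fell. Those that rose were pmg by 1.23 log2, lao by 1.06, aln-1, the allantoinase gene, by 1.34 and xdh-1, the xanthine dehydrogenase gene, by 1.33. mtr, a neutral amino acid permease gene, fell by 1.18. None of the 5 ammonium assimilation genes and none of the 3 regulators passed. In Δnit-2 on nitrate 4 of the 6 fell and none rose, where 5.70% of all genes fell. The genes of the list that fell were pmg by 1.04 log2, lao by 2.37, aln-1 by 2.04 and alc-1, the allantoicase gene, by 1.14. Of ammonium assimilation 2 of 5 fell in Δnit-2, am (NADP-dependent glutamate dehydrogenase) by 1.78 and gln-1 (glutamine synthetase) by 2.22. Of the regulators nmr fell by 1.12, beside the deleted nit-2 itself. The median log2 difference over the secondary source list was 1.15 in the libraries labelled Δnit-4 and -1.09 in Δnit-2, against -0.0015 and 0.017 over all genes tested. Both comparisons share the wild type nitrate libraries.

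Without nitrogen, the libraries labelled Δnit-4 read 9.72, 7.48 and 10.2 FPKM for nit-10, 1.74, 2.32 and 2.18 for nit-3, and 1.27, 1.50 and 1.74 for nit-6. They lay below all 6 starved wild type libraries, for nit-3 only narrowly, at 2.32 against 2.36 FPKM. The share of all genes without overlap in this comparison was not counted. Over all 6 the differences did not pass, at -4.12 log2 for nit-10 (SE 1.62, adjusted p = 0.16), -3.88 for nit-3 (SE 1.85, adjusted p = 0.25) and -4.82 for nit-6 (SE 2.03, adjusted p = 0.19), where 3.30% of all genes passed in either direction. The size rests on which starved wild type libraries are used. Against 1 to 3 alone the differences were -6.93, -7.10 and -8.35 log2 for nit-10, nit-3 and nit-6. Against 4 to 6 alone nit-10 and nit-6 were at -1.30 and -1.29. There nit-3 measured 2.08 ± 0.300 FPKM in the libraries labelled Δnit-4 and 4.00 ± 1.48 in wild type (SD, n = 3). These values are given with no test because the sets were split with these genes seen. nit-10 in the libraries labelled Δnit-4 was higher without nitrogen than on nitrate in every library, a pair of groups for which no test was made. The difference between the effects on nitrate and without nitrogen was -3.61 log2 for nit-10, -1.77 for nit-3 and -3.48 for nit-6. None passed (adjusted p = 0.54, 0.82 and 0.65), where 0.0115% of all genes passed in either direction. With starved libraries 1 to 3 alone nit-3 and nit-6 turned, to 1.45 and 0.057, while nit-10 kept its direction. With 4 to 6 alone the values were -6.43, -4.99 and -7.01 for nit-10, nit-3 and nit-6.

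Loss of nmr raised the transporter and the nitrate reductase in full medium. Δnmr read 710, 778 and 788 FPKM for nit-10, 295, 300 and 301 for nit-3, and 359, 454 and 468 for nit-6. For nit-10 and nit-3 every library lay above every wild type library of full medium, and for nit-6 the ranges overlapped at 359 against 366. nit-3 rose by 2.55 log2 (SE 0.18, adjusted p = 1.3e-17), 5.85-fold by means. nit-10 rose by 1.26 log2 (SE 0.14, adjusted p = 2.4e-10), 2.37-fold by means, and did not pass with the starved libraries in the fit (adjusted p = 0.16). Of all genes 2.17% rose. nit-6 differed by 0.36 log2 (SE 0.31, adjusted p = 0.40). The nit-6 to nit-3 ratio was 1.43 ± 0.185 in Δnmr against 6.71 ± 1.38 in wild type (SD, n = 3 and 5), with no overlap. The nit-3 level in Δnmr in full medium was above all wild type nitrate libraries, with no overlap between 295 and 197 FPKM.

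In Δnmr in full medium 4 of the 6 genes of secondary nitrogen sources rose, where 2.17% of all genes rose. Those that rose were lao by 3.78 log2, aln-1 by 1.28, alc-1 by 1.21 and pmg by 1.11. mtr and xdh-1 did not pass, at -0.088 and 0.48 log2. Of ammonium assimilation 2 of 5 rose, gdh-1 (NAD-dependent glutamate dehydrogenase) by 2.06 and gln-1 by 1.07. Among the regulators the deleted nmr was lower. The median log2 difference was 1.16 over the secondary source list and 0.76 over ammonium assimilation, against -3.7e-17 over all genes tested.

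Without nitrogen Δnmr was low for all 3 genes. It read 21.9, 21.8 and 19.6 FPKM for nit-10, 7.57, 8.89 and 3.22 for nit-3, and 6.71, 5.14 and 1.81 for nit-6. Compared with Δnmr in full medium, nit-10 fell by 5.10 log2, nit-3 fell by 5.40 and nit-6 fell by 6.38 (SE 0.16, 0.21 and 0.35, adjusted p at most 3.3e-23), where 9.97% of all genes fell. Against starved wild type none passed over all 6 libraries, at -2.98, -2.67 and -3.79 log2 for nit-10, nit-3 and nit-6 (adjusted p = 0.23, 0.34 and 0.23), where 3.12% of all genes passed in either direction. The test of the difference between the nmr effects in full medium and without nitrogen gave 4.24 log2 for nit-10, 5.22 for nit-3 and 4.15 for nit-6. None passed (adjusted p = 0.14, 0.12 and 0.25), where 3.06% of all genes passed in either direction. Against starved libraries 1 to 3 alone the differences of starved Δnmr were -5.79, -5.89 and -7.32 log2 for nit-10, nit-3 and nit-6. Against 4 to 6 alone nit-3 turned to 0.55, again with no test. There nit-10 measured 21.1 ± 1.27 FPKM in Δnmr and 24.0 ± 4.00 in wild type (SD, n = 3). nit-6 measured 4.55 ± 2.50 and 5.53 ± 2.91 FPKM (SD, n = 3). The starved Δnmr libraries overlapped starved wild type libraries 4 to 6 for all 3 genes. Their conidiation sum was 213 to 361 FPKM, far below the 6836 to 7724 of those wild type libraries.

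In Δamn-1 the groups of libraries overlapped wild type for all 3 genes on isoleucine, for nit-6 and nit-10 on tryptophan and for nit-6 on mannose, and for none on proline. Of the 3 genes and 4 media, only nit-3 on proline passed, at 6.83, 9.56 and 10.3 FPKM in Δamn-1 against 2.16, 2.13 and 2.05 in wild type. It rose by 1.65 log2 (SE 0.21, adjusted p = 2.9e-09), 4.21-fold by means, and 3.14% of all genes rose in that comparison. It did not pass with the starved libraries in the fit (adjusted p = 0.12). On proline nit-10 read 14.1, 17.0 and 21.6 FPKM against 8.64, 9.43 and 9.53 and missed the fold threshold at 0.84 log2 (SE 0.16, adjusted p = 2.5e-05). nit-6 read 11.3, 6.80 and 11.9 FPKM against 15.1, 20.1 and 18.9, a difference of -0.82 (SE 0.35, adjusted p = 0.051). On proline the nit-3 libraries lay above those of wild type and the nit-6 libraries below. The nit-6 difference did not pass, and the share of all genes without overlap was not counted in this or the other Δamn-1 comparisons. On tryptophan nit-3 read 7.37, 15.4 and 9.30 FPKM in Δamn-1, above every wild type library, with a difference of 0.75 log2 (adjusted p = 0.025) that missed the fold threshold. None of the 3 genes passed on tryptophan, isoleucine or mannose, where 0.678%, 0.701% and 16.9% of all genes passed in either direction. On isoleucine the differences were -0.15 to -0.22 log2, and on mannose 0.52 for nit-3, -0.47 for nit-10 and -0.79 for nit-6.

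Across the 27 groups the transporter and the nitrate reductase tracked each other more closely than either tracked nit-6. As a description over group means of log2(FPKM + 1), Pearson's r was 0.93 for nit-3 and nit-10 (Spearman's rho 0.78). It was 0.66 for nit-3 and nit-6 (rho 0.30) and 0.69 for nit-6 and nit-10 (rho 0.38). Without the 5 Δnit-2 groups these became 0.93, 0.86 and 0.87. Groups share strains and media, so they are not independent points.

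The genes with the most similar patterns, among 7013 genes whose highest group mean was at least 10 FPKM, are given by the same measure. For nit-3 the first was nit-10, followed by NCU05296 (r = 0.70), NCU07959 (0.68), NCU08225 (0.67) and NCU00602 (0.66). For nit-10 they were nit-3, NCU00602 (0.69), nit-6 (0.69), NCU07959 (0.68) and NCU05296 (0.67). For nit-6 the first was NCU10051 (0.81), ahead of nit-10 (0.69), nit-3 (0.66), NCU02517 (0.56) and npd-1 (0.54). NCU10051 and npd-1 set themselves apart from nit-3 and nit-10 in Δnit-2. On nitrate NCU10051 read 1652 ± 170 FPKM in wild type, 1661 ± 553 in Δnit-2 and 61.2 ± 29.7 in the libraries labelled Δnit-4 (SD, n = 3). npd-1 read 54.2 ± 3.69, 79.1 ± 6.32 and 3.01 ± 0.717 FPKM in the same groups. On ammonium they read 234 ± 15.4 and 11.1 ± 1.15 FPKM in wild type. Both were thus high on nitrate in wild type and Δnit-2 alike and low in the libraries labelled Δnit-4 in these values. In its change from wild type to Δnit-2, nit-6 lay between them and nit-3 and nit-10. npd-1 was higher without sucrose, at 106 ± 10.5 FPKM on mannose and 82.7 ± 8.01 under carbon starvation in wild type (SD, n = 3). nit-6 was low there, at 11.1 ± 10.2 and 5.69 ± 1.74 FPKM (SD, n = 3). NCU00602 had its highest group mean in Δnmr in full medium, at 101 ± 3.73 FPKM, while 1 starved wild type library reached 202. It read 21.5 ± 1.92 on nitrate and 7.67 ± 1.09 on ammonium in wild type (SD, n = 3). No test was made on these genes, which were picked for their likeness. Over the 26 groups without starved wild type, NCU02152 (0.60) and NCU01341 (0.59) took the places of NCU02517 and npd-1 for nit-6.

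NCU11348, whose gene model lies 4 bases from that of nit-10, varied far less than nit-10. It ranged from 37.8 to 322 FPKM over the 86 libraries, a ratio of 8.52, against 705 for nit-10. On nitrate it read 119 ± 3.87 FPKM in wild type, 101 ± 5.89 in Δnit-2 and 102 ± 6.20 in the libraries labelled Δnit-4 (SD, n = 3). It did not pass the test in Δnit-2 or the libraries labelled Δnit-4 on nitrate, at -0.24 and -0.22 log2 (adjusted p = 0.071 and 0.11). In Δnmr in full medium it read 258 ± 13.1 FPKM against 168 ± 24.1 in wild type (SD, n = 3 and 5), a log2 difference of 0.62 that missed the fold threshold (adjusted p = 1.8e-06).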

How the data were processed

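Per the submitters' processing notes, reads were processed with HISAT2 2.1.0, Cufflinks 2.2.1 and Cuffnorm 2.2.1. The sources used here do not name the genome build or the counting options. The authors deposited FPKM per gene for each sample, and these were used. Their joint table was not used. The number of fragments behind a value was estimated from its deposited confidence bound. Values below 20 fragments came out whole, within 0.05, in 78.3% of cases. 41 values marked as failed were treated as missing, none of them in the 3 genes. Each library was divided by 1 median-ratio factor over 8082 genes, from -0.36 to 0.48 log2. The 100 replicate pairs held 0 identical ones.

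limma 3.58.1 in R 4.3.3 was fitted with a trended prior to log2(FPKM + 1) for 8705 genes at FPKM of at least 1 in 3 or more libraries. The fit held 80 libraries of 26 groups, with 54 residual and 3.97 prior degrees of freedom. Starved wild type was left out of it because its libraries differ from each other. The 5 comparisons with starved wild type used only the groups compared. In all 41 comparisons were made, 3 of them added after values were seen. The fit was tested on simulated data. Permutation tests used scipy 1.17.1 and figures matplotlib 3.10.9.

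The members and gene lists were chosen with earlier results of these data known. Genes outside the 3 were named by fixed lists (regulators, ammonium assimilation, secondary nitrogen sources, conidiation, the neighbour of nit-10) and as the 5 most similar genes of each member. The identifier of amn-1 came from background knowledge. Replicate numbers were not taken to pair libraries, since same-numbered libraries did not deviate together in all pairs in any of 35 comparisons (correlations from -0.37 to 0.40). Alternatives were another pseudocount, other filters, FPKM as deposited, other sets of groups in the fit, subsets by label number, a replicate block and leaving out each library.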

Additional observations from a re-analysis of the deposited data

Results flagged for a closer look

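One full medium library of wild type, labelled 4, stood apart from the other 4 for nit-3, at 70.9 FPKM against 42.2 to 50.2. By Dixon's test its ratio of gap to range was 0.72 against a critical value of 0.71, and on the log2 scale it was 0.67, under that value. Chance gives such a value in about 1 of 20 groups.

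The fall in Δnit-2 differed between media, by a test of the difference itself. For nit-3 against each medium and nit-10 against the amino acids, wild type levels left no room for the fall seen on nitrate. Nitrate minus full medium gave -1.54 log2 for nit-3 and -1.73 for nit-10. Nitrate minus isoleucine gave -5.03 for nit-3, -2.20 for nit-6 and -6.69 for nit-10. Nitrate minus proline gave -5.30, -1.78 and -6.87 in the same order. Nitrate minus tryptophan gave -4.20, -2.37 and -7.27.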

How the results depend on the processing

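Of 1983 values of the 3 genes recomputed under alternatives, 1881 kept their direction and their side of the threshold and 102 did not. No value changed with no filter, with a filter at FPKM 10, with only the groups compared in the fit, or with full medium cut to libraries 1 to 3 or to 4 and 5. FPKM as deposited shifted the median of all genes by over 0.1 log2 in 17 comparisons (from -0.17 to 0.41) and moved the share of higher among called genes by over 10 percentage points in 23. Low levels limit the smallest values, as the fewest estimated fragments behind a nit-3 value were 30.0.

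With a pseudocount of 0.1 these passed as well: nit-10 in Δnit-2 on isoleucine (-1.04), nit-3 in Δnit-2 on proline (-1.56), and within Δnit-2 on nitrate nit-10 against isoleucine (-1.14) and tryptophan (-1.07) and nit-3 against proline and tryptophan (1.07 each). As deposited, nit-3 under starvation turned to 0.074 and nit-6 in Δnit-2 on tryptophan to -0.041, and nit-10 in Δamn-1 on proline passed at 1.01.

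With all 86 libraries in 1 fit the differences stay and the estimated spread changes. Passing no longer were nit-6 and nit-10 on nitrate against full medium (1.27, 1.34), nit-3 on isoleucine (-1.10) and nit-3 and nit-6 on proline (-1.50, -2.05) against ammonium, nit-3 in Δnit-2 on isoleucine (-1.18) and tryptophan (-2.01), nit-10 in Δnmr in full medium (1.26) and nit-3 in Δamn-1 on proline (1.65). The same held for the differences between Δnit-2 effects of nit-3 (-1.54) and nit-10 (-1.73) against full medium and of nit-6 against isoleucine, proline and tryptophan (-2.20, -1.78, -2.37). Newly passing were nit-6 under starvation (-2.23), the starved libraries labelled Δnit-4 for nit-3, nit-6 and nit-10 (-3.88, -4.82, -4.12), starved Δnmr (-2.67, -3.79, -2.98), the difference of Δnit-4 effects for nit-10 (-3.61) and of Δnmr effects (5.22, 4.15, 4.24).

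Replicate numbers did not pair the libraries. A fit with the replicate block changed 12 values, all with starved wild type, where shared numbers leave libraries 1 to 3 for the deletion strains. nit-3 under starvation became 0.39, the libraries labelled Δnit-4 gave -7.10, -8.35 and -6.93 and Δnmr gave -5.89, -7.32 and -5.79 for nit-3, nit-6 and nit-10. The difference of Δnit-4 effects became 1.45 for nit-3 and 0.057 for nit-6, and that of Δnmr effects 8.52, 7.59 and 6.86.

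With starved libraries 1 to 3, starvation gave 3.04, 1.30 and 1.95 for nit-3, nit-6 and nit-10, Δnit-4 gave -7.10, -8.35 and -6.93, Δnmr gave -5.89, -7.32 and -5.79, the difference of Δnit-4 effects was 1.45 for nit-3 and 0.057 for nit-6, and that of Δnmr effects 8.44, 7.68 and 7.06. With full medium also cut to 1 to 3, starvation gave 3.12, 1.21 and 1.76 and the Δnmr difference 8.52, 7.59 and 6.86. With starved libraries 4 to 6, starvation gave -3.40, -5.76 and -3.68, Δnit-4 gave -1.29 for nit-6 and -1.30 for nit-10, Δnmr gave 0.55 for nit-3, the Δnit-4 difference was -4.99, -7.01 and -6.43 and the Δnmr difference 2.00 for nit-3 and 1.43 for nit-10. With full medium also cut to 4 and 5, starvation gave -3.52, -5.63 and -3.39 and the Δnmr difference 1.88 for nit-3 and 1.72 for nit-10.

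Leaving out 1 library at a time changed 20 of 993 values. The ranges were -0.57 to 0.20 for nit-6 and -1.11 to -0.77 for nit-10 in Δnit-2 on isoleucine, -0.10 to 0.21 for nit-6 in Δnit-2 on tryptophan, -1.12 to -0.78 for nit-10 in Δnit-2 on nitrate against isoleucine, and -0.25 to 0.014 for nit-10 in Δnit-4 against Δnit-2. They were -1.22 to -0.99 for nit-3 on isoleucine against ammonium and -0.89 to 0.57 for nit-3 under starvation. In Δamn-1 they were -0.68 to 0.10 for nit-6 on isoleucine, -1.16 to -0.14 on mannose and -0.58 to 0.13 on tryptophan, and -0.092 to 0.21 for nit-10 on tryptophan.

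Counts of genes called over all genes moved by over 1.5 times as follows. A pseudocount of 0.1 raised alanine from 461 to 693, glutamine from 106 to 171, nitrate against ammonium from 106 to 172, isoleucine against ammonium from 1019 to 1546, Δnit-2 in full medium from 235 to 395, Δnmr in full medium from 394 to 643 and starved from 271 to 439, and Δnit-2 on nitrate against isoleucine from 235 to 423 and against proline from 122 to 213. Only the groups compared lowered Δamn-1 on isoleucine from 61 to 18 and on tryptophan from 59 to 36, and the nitrate minus isoleucine difference from 287 to 170. All 86 libraries raised starved Δnit-4 from 287 to 476, starved Δnmr from 271 to 482, the Δnit-4 difference from 1 to 192 and the Δnmr difference from 266 to 558. The Δnit-4 difference, at 1 gene, was 4 with the pseudocount of 0.1 and 2 with a filter at FPKM 10 or as deposited. Except where a setting itself leaves libraries out, the cause was not tested.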
